A study of Homo sapiens with 6 samples.

Results

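Integrins and laminins form the link between a cell and its basement membrane, and their genes were followed here in 8505C, a cell line from an anaplastic thyroid carcinoma, 24 h after an siRNA against POLR1F. The genes were taken by symbol: 31 were named, 30 of them were measured among 33539 genes, and ITGA8 was not analysed here. Poly(A) RNA was sequenced from 3 libraries of cells that received the POLR1F siRNA (siPOLR1F) and 3 libraries of cells that received a negative control siRNA (NC), both grown in RPMI-1640 with 10% fetal bovine serum. POLR1F encodes a subunit of RNA polymerase I, which transcribes ribosomal RNA genes, and the study asked which genes respond to its silencing. All libraries come from 1 cell line. Whether replicate libraries were grown as separate cultures is not stated in the labels, so the p-values reflect a spread among libraries that may be only technical.

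Integrins are receptors made of 1 alpha and 1 beta subunit, and the pair decides the ligand. Subunits such as ITGA3, ITGA6 and ITGA7 bind laminins, ITGA1 and ITGA2 bind collagens, and ITGA5 and ITGAV bind the RGD motif of fibronectin and vitronectin. Laminins are cross-shaped trimers of an alpha, a beta and a gamma chain that assemble into the sheet of the basement membrane. LAMB3 enters the laminin that anchors epithelial cells through hemidesmosomes, LAMB1 and LAMB2 enter the laminins of most other basement membranes, and LAMA4 is known from vessel walls, muscle and fat. Thyroid follicles rest on such a membrane.

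The libraries were of like depth, with 60576788 to 63038378 counts each. POLR1F had 2.09, 1.42 and 1.51 FPKM (fragments scaled by transcript length and library depth) in siPOLR1F libraries and 8.80, 8.42 and 7.64 FPKM in NC libraries, with no overlap (log2 fold change -2.30, SE 0.15; edgeR adjusted p = 9.76e-05). The epithelial keratins KRT8 and KRT18 summed to 225 to 256 FPKM in siPOLR1F and 265 to 297 FPKM in NC libraries, without overlap. KRT8 was lower in siPOLR1F (log2 fold change -0.25, edgeR adjusted p = 0.0197). The groups overlapped for KRT18, which did not pass (log2 fold change -0.14, edgeR adjusted p = 0.195). The thyroid factor NKX2-1 had 25.7 to 28.8 FPKM in siPOLR1F and 41.8 to 47.2 FPKM in NC libraries, while TG was at or near 0 and PAX8 was at 0.218 to 0.648 FPKM in siPOLR1F and 0.256 to 0.777 FPKM in NC libraries. Of the markers of other cells, 1 of 4 leukocyte, 1 of 4 endothelial and 0 of 4 fibroblast genes measured reached a mean of 0.5 FPKM; the leukocyte gene PTPRC was at 0.00907 FPKM or less. Their summed FPKM were 1.38 to 1.92 in siPOLR1F and 1.58 to 1.63 in NC libraries for leukocyte genes, and 2.37 to 5.05 in siPOLR1F and 5.62 to 6.94 in NC libraries for endothelial genes. For fibroblast genes they were 0.335 to 0.593 in siPOLR1F and 0.548 to 0.924 in NC libraries. The endothelial sum was mostly CDH5, which averaged 2.72 FPKM in siPOLR1F and 5.65 FPKM in NC libraries (edgeR adjusted p = 0.00308). The other endothelial genes averaged higher in siPOLR1F than in NC: PECAM1 (0.413 and 0.292 FPKM), VWF (0.441 and 0.198 FPKM) and KDR (0.157 and 0.0669 FPKM). Their groups overlapped, and each was below a mean of 0.5 FPKM and not tested. The part of such markers in the results was not tested.

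Of the 30 genes, 19 had a mean of at least 0.5 FPKM over the 6 libraries and were tested, and 11 were below that level. LAMB3, LAMA4, ITGA2 and ITGA5 were higher in siPOLR1F cells, ITGA7 and LAMB2 were lower, and the other 13 did not pass an adjusted p of 0.05 in the edgeR quasi-likelihood test. Called genes made up 31.6% of these 19 genes, with 21.1% higher and 10.5% lower. Over all 13564 genes tested 17.2% were called, with 10.3% higher and 6.94% lower. The median log2 fold change of the 19 genes was -0.03, and that of all tested genes was -0.01; the median size of a change was 0.14 in the 19 genes and 0.17 in all genes. Changes within the family were therefore no larger at the median than those of other genes, and they ran in both directions. Without siPOLR1F replicate 1, or with every gene of at least 1 count in the fit, LAMB3 was the only one of the 19 that passed. In these fits 9.27% and 2.91% of all genes were called. Of the 19, 2 passed without siPOLR1F replicate 3 (8.5% of all genes) and 4 without NC replicate 2 (16% of all genes). Leaving out siPOLR1F replicate 2, NC replicate 1 or NC replicate 3 left 3 each, beside 10.4%, 13.1% and 10.4% of all genes. Groups did not overlap in FPKM for 8 of the 19 genes, 4 higher and 4 lower in siPOLR1F, and for 37.9% of all genes tested (18.9% higher and 19% lower). Any bulk level stands for all cells of a library, so fewer cells with a transcript and less of it per cell cannot be told apart.

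**Figure D1:**
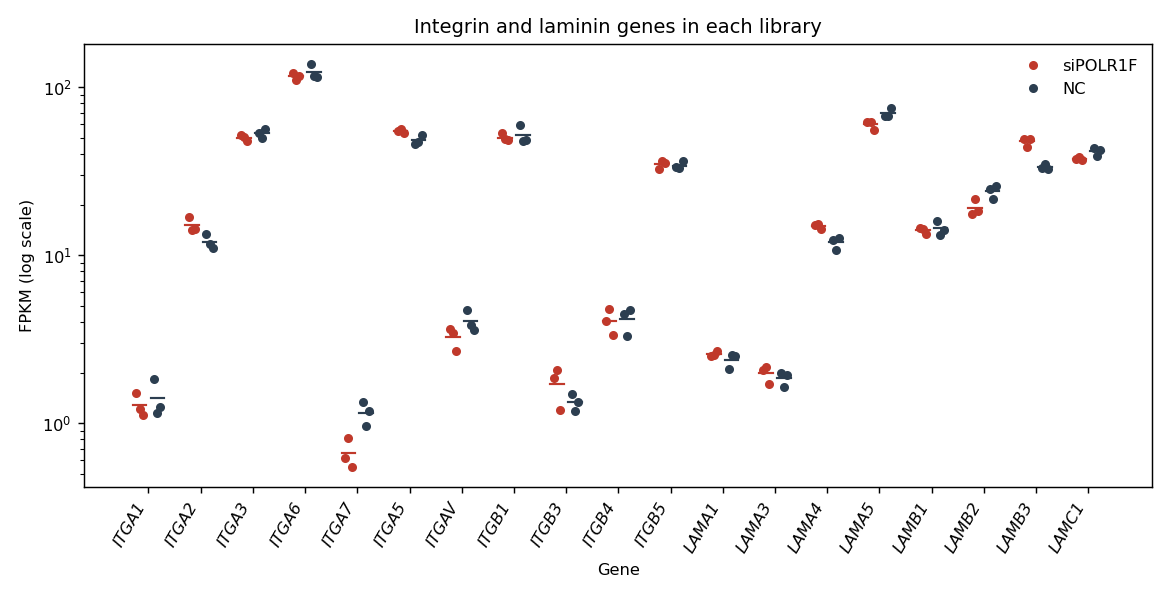
FPKM on a log axis of the 19 tested integrin and laminin genes in each library, with siPOLR1F (red) left of NC (dark) and a bar at each group mean (n = 3). ITGA6 stands highest, near 116 FPKM in siPOLR1F and 123 FPKM in NC, and the groups are clearly separate for LAMB3, LAMA4 and ITGA7.

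Among the laminin beta chains, LAMB3 and LAMB2 moved in opposite directions. LAMB3 (ENSG00000196878, GRCh38 chromosome 1, 209614870 to 209652425, minus strand) had 49.5, 44.0 and 49.3 FPKM in siPOLR1F libraries and 33.1, 34.9 and 32.7 FPKM in NC libraries. Every siPOLR1F library was above every NC library, by at least the gap between 44.0 and 34.9 FPKM. The rise was 1.43-fold (log2 fold change 0.51, SE 0.06, 95% interval 0.37 to 0.66, edgeR adjusted p = 0.00144). LAMB3 passed in all 14 alternatives run, with adjusted p-values of 3.74e-11 to 0.0133. It was the only member of the family that passed in all of them. LAMB2 (ENSG00000172037, chromosome 3, 49121114 to 49133050, minus strand) had 17.6, 21.5 and 18.2 FPKM in siPOLR1F libraries and 24.8, 21.6 and 25.8 FPKM in NC libraries. The groups barely separated, since siPOLR1F replicate 2 lay just under NC replicate 2. The log2 fold change was -0.33 (SE 0.09, edgeR adjusted p = 0.0414). This call ended without NC replicate 1 (0.0927) or 3 (0.12) and without siPOLR1F replicate 1 (0.128) or 3 (0.134) and with limma (0.0565 and 0.0554), within 0.00331 to 0.165 over its alternatives. LAMB1 (ENSG00000091136), the beta chain of the laminins of early and many adult basement membranes, had 14.6, 14.3 and 13.4 FPKM in siPOLR1F and 16.1, 13.2 and 14.03 FPKM in NC libraries. The groups overlapped, and the log2 fold change of -0.03 had a 95% interval of -0.21 to 0.15.

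As the shares of the summed beta chain FPKM show, LAMB3 made up 60.6%, 55.1% and 60.95% in siPOLR1F libraries and 44.8%, 50.1% and 45.1% in NC libraries. LAMB2 made up 21.5%, 26.9% and 22.5% in siPOLR1F and 33.5%, 31.0% and 35.5% in NC libraries. The sum itself was 80.8 ± 0.9 FPKM in siPOLR1F and 72.1 ± 2.16 FPKM in NC (SD, n = 3 each). Within a library, the log2 ratio of LAMB3 to LAMB1 was 1.76, 1.62 and 1.88 in siPOLR1F and 1.04, 1.40 and 1.22 in NC libraries. Their means differed by 0.53, with an exact two-sided permutation p = 0.1, the smallest that 3 against 3 libraries allow (0.3 after Benjamini-Hochberg adjustment over 3 ratios). The ratio of LAMB3 to LAMB2, taken up after the values were seen and not tested, was 1.32 ± 0.25 in siPOLR1F and 0.48 ± 0.18 in NC (log2, SD, n = 3 each). Thus LAMB3 exceeded LAMB2 and LAMB1 in every library of either group, and by more in each siPOLR1F library.

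The 250 bases before the RefSeq start of LAMB3 and LAMB2 are shown because these beta chain genes changed in opposite directions. The windows are chr1:209652426-209652675 and chr3:49133051-49133300 (RefSeq, GRCh38.p14, minus strand, written 5′ to 3′ towards the gene), and both starts equal those of the deposited table. Capitals mark the only motif found of 4 searched on both strands, the GC box GGGCGG read here on the opposite strand.
LAMB3: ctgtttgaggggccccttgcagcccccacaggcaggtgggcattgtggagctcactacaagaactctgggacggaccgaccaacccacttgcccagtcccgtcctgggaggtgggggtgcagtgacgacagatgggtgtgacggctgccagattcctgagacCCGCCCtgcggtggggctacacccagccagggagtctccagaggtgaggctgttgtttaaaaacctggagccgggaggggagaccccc
LAMB2: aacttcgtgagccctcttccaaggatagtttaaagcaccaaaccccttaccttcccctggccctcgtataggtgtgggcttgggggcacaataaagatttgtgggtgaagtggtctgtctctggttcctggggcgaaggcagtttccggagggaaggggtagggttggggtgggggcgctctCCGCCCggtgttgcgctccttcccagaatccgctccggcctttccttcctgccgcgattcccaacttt
The match began 88 bases before the start of LAMB3 and 68 bases before that of LAMB2. A GC box stood in 42.6% of all 35116 promoter windows of this length, and in 10 of the 14 tested integrin and laminin genes matched to the RefSeq table. The 14 genes had passed the filter on expression and the 35116 windows had not been filtered, so these shares cannot be compared directly. The other motifs were AP-1 (TGANTCA, 6.57% of all windows), the TATA box (TATAAA, 10.7%) and the E-box (CACGTG, 6.34%). AP-1 occurred only in the LAMA3 window of the 14, at 125 and 69 bases before a RefSeq start that lies inside the counted gene, 183567 bases from the start in the deposited table, and the TATA and E-box letters only in that of ITGA6. The RefSeq start also lay 47562 bases from the table's start for ITGB1 and 15323 bases for LAMA5, and within 155 bases of it for the other 11 genes. The beta chain genes that rose and fell thus shared their motif content in these windows. The window of LAMB1, which did not pass, also held no motif but the GC box.

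**Figure D2:**
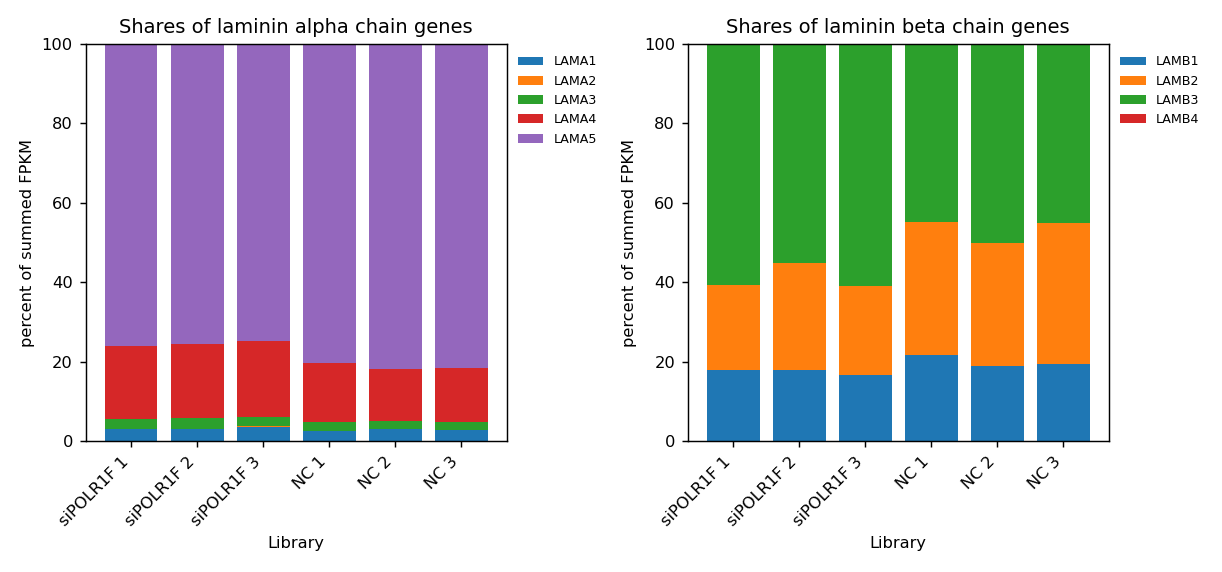
Stacked bars of the share, in percent of the summed FPKM, of each laminin alpha chain gene (left) and beta chain gene (right) in every library, siPOLR1F before NC. LAMB3 takes 55.1% to 60.95% in siPOLR1F and 44.8% to 50.1% in NC, and LAMA4 takes 18.5% to 19.2% in siPOLR1F and 13.1% to 14.8% in NC.

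Of the laminin alpha chains, LAMA4 rose. LAMA4 (ENSG00000112769, chromosome 6, 112107931 to 112254722, minus strand) had 15.1, 15.3 and 14.2 FPKM in siPOLR1F and 12.4, 10.7 and 12.7 FPKM in NC libraries. The groups did not overlap, and the log2 fold change was 0.33 (SE 0.07, edgeR adjusted p = 0.017). The call ended without siPOLR1F replicate 1 (0.0598) or 2 (0.0601), within 0.000281 to 0.0622 over its alternatives. LAMA5 (ENSG00000130702), the alpha chain of most adult epithelial basement membranes and the most abundant laminin gene here, had 62.4, 62.2 and 55.5 FPKM in siPOLR1F and 67.0, 67.2 and 75.5 FPKM in NC libraries. Every siPOLR1F library was below every NC library. Its log2 fold change of -0.21 (95% interval -0.36 to -0.06) did not pass with edgeR (adjusted p = 0.0581), but passed with DESeq2 (0.0217) and with a mean of at least 1 FPKM (0.0481). LAMA5 overlaps ADRM1 on the other strand, which had 86.7 FPKM in siPOLR1F and 72.3 FPKM in NC on average, and reads may be divided between them. LAMA4 took 18.7% ± 0.375 of the summed alpha chain FPKM in siPOLR1F and 13.8% ± 0.902 in NC, while LAMA5 took 75.4% ± 0.594 in siPOLR1F and 81.2% ± 0.806 in NC (SD, n = 3 each). The embryonic chain LAMA1 (2.58 ± 0.0946 FPKM in siPOLR1F, 2.38 ± 0.259 FPKM in NC) and the hemidesmosomal partner of LAMB3, LAMA3 (1.98 ± 0.231 FPKM in siPOLR1F, 1.86 ± 0.182 FPKM in NC), had overlapping groups (SD, n = 3 each). LAMA3 stood well below LAMB3 in FPKM, and its log2 fold change of 0.10 had a 95% interval of -0.15 to 0.35.

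LAMC1, the gamma chain of most laminins, had 37.2, 38.4 and 36.6 FPKM in siPOLR1F and 43.2, 39.1 and 42.3 FPKM in NC libraries. The groups did not overlap, but the log2 fold change of -0.14 (95% interval -0.26 to -0.02) did not pass with edgeR (adjusted p = 0.104, 0.0529 to 0.272 over its alternatives). LAMA5, LAMB2 and LAMC1, which can join in 1 trimer, had negative values. Only that of LAMB2 passed, and its call held in 6 of 14 alternatives. Negative values were common, in 11 of the 19 genes and in 7126 of all 13564 genes tested. A joint change of the trimer was not tested.

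**Figure D3:**
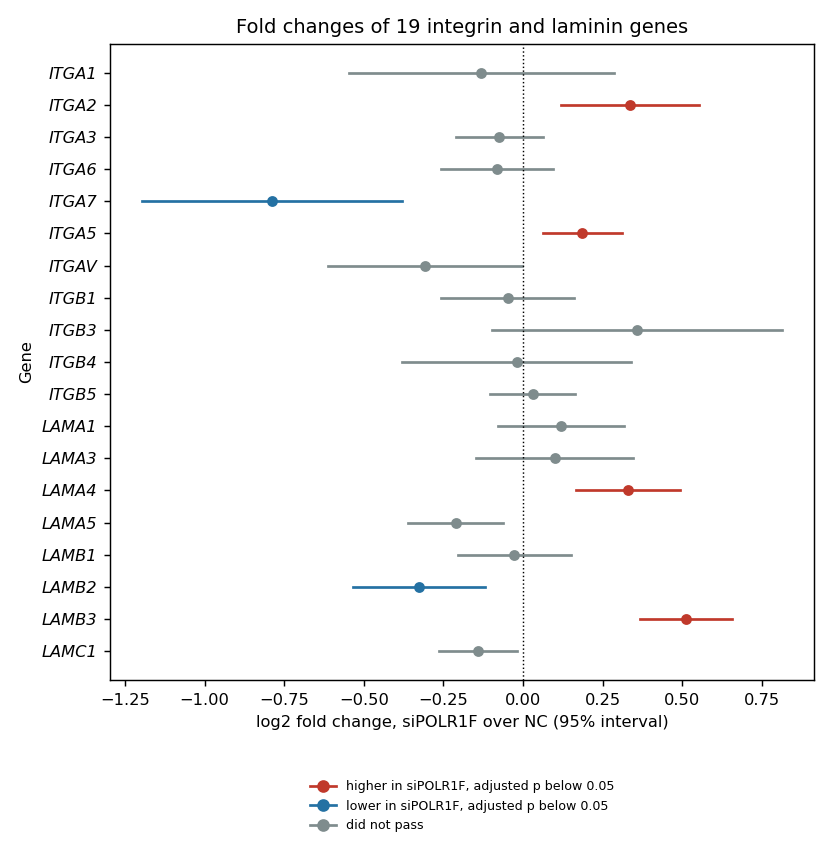
The log2 fold change, siPOLR1F over NC, of the 19 tested genes with its 95% interval from edgeR; red and blue mark genes that passed as higher or lower, grey those that did not. LAMB3 has the largest rise at 0.51 and ITGA7 the largest fall at -0.79, with the widest interval among the called genes.

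The integrin alpha subunits were led by ITGA6, ITGA5 and ITGA3, of which ITGA5 rose. ITGA5 (ENSG00000161638, chromosome 12, 54395261 to 54419266, minus strand), the fibronectin receptor subunit, had 54.9, 56.4 and 53.2 FPKM in siPOLR1F and 46.1, 47.5 and 51.8 FPKM in NC libraries. NC replicate 3 came close to siPOLR1F replicate 3, and the log2 fold change was small at 0.19 (SE 0.05, edgeR adjusted p = 0.0494). This call ended without NC replicate 1 (0.125) or 2 (0.117), without siPOLR1F replicate 1 (0.124), 2 (0.146) or 3 (0.086), and with library size alone (0.0655) or limma (0.0762 and 0.0763), within 0.0177 to 0.146 over its alternatives. ITGA2 (ENSG00000164171, chromosome 5, 52989340 to 53094779, plus strand), the collagen receptor subunit of epithelia and platelets, had 16.8, 14.1 and 14.3 FPKM in siPOLR1F and 13.3, 11.6 and 11.1 FPKM in NC libraries. The groups were separate by a small gap, and the log2 fold change was 0.34 (SE 0.10, edgeR adjusted p = 0.0443). It ended without NC replicate 2 (0.103) or 3 (0.13), without siPOLR1F replicate 1 (0.131), 2 (0.0591) or 3 (0.081), with library size alone (0.0508) and with limma (0.0577 and 0.057), within 0.00382 to 0.138 over its alternatives. ITGA1, the other collagen-binding subunit expressed, lies 30131 bases before ITGA2 on the same strand. It had 1.51, 1.22 and 1.11 FPKM in siPOLR1F and 1.82, 1.15 and 1.25 FPKM in NC libraries, and did not pass (log2 fold change -0.13, 95% interval -0.55 to 0.28). ITGA1 contains PELO on the same strand, which had 3458 counts on average against 1732 for ITGA1, so its level is uncertain.

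Among laminin-binding subunits, ITGA7 fell, and the abundant ITGA6 and ITGA3 did not pass. ITGA7 (ENSG00000135424, chromosome 12, 55684568 to 55716037, minus strand), best known from muscle, had 0.617, 0.817 and 0.550 FPKM in siPOLR1F and 1.33, 0.961 and 1.17 FPKM in NC libraries. Every siPOLR1F library was lower, with 355 to 529 counts, against 598 to 854 counts in NC libraries. Its log2 fold change of -0.79 (standard error 0.18; edgeR adjusted p = 0.0202) was the largest in size of the 19 genes, and on log2(FPKM + 1) it was -0.37. The call ended without NC replicate 1 (0.0588) or 3 (0.0582) and without siPOLR1F replicate 1 (0.0669) or 3 (0.0721), within 0.000216 to 0.0846 over its alternatives. ITGA7 overlaps METTL7B on the other strand, which had 549.5 counts on average against 580.3 for ITGA7 and a log2 fold change of -0.59 (adjusted p = 0.0358 with edgeR), and the strand setting of the counting is not given. ITGA6 (ENSG00000091409), which pairs with ITGB4 in hemidesmosomes and with ITGB1 elsewhere, had 121.5, 109.8 and 116.5 FPKM in siPOLR1F and 137.2, 117.3 and 115.2 FPKM in NC libraries. ITGA3 (ENSG00000005884), the partner of ITGB1 in epithelial adhesion to laminin, had 51.9, 50.7 and 47.7 FPKM in siPOLR1F and 53.5, 49.5 and 56.2 FPKM in NC libraries. Both sets of values overlapped, with log2 fold changes of -0.08 for each gene and 95% intervals of -0.26 to 0.09 for ITGA6 and -0.21 to 0.06 for ITGA3. The log2 ratio of ITGA6 to ITGA3 was 1.21 ± 0.09 in siPOLR1F and 1.21 ± 0.16 in NC (SD, n = 3 each; exact permutation p = 1). ITGAV, the subunit shared by vitronectin receptors, had 3.64, 3.43 and 2.70 FPKM in siPOLR1F and 4.72, 3.86 and 3.59 FPKM in NC libraries (log2 fold change -0.31, edgeR adjusted p = 0.148). NC replicate 1 was the highest NC library for ITGA1, ITGA6, ITGAV, ITGB1 and LAMB1, and also for ITGA2, ITGA7, ITGB3, LAMA3 and LAMC1. Of these genes, siPOLR1F replicate 1 was the highest siPOLR1F library for ITGA1, ITGA2, ITGA6, ITGAV, ITGB1 and LAMB1. Without NC replicate 1 the log2 fold changes of ITGA1, ITGA6, ITGB1 and LAMB1 became 0.10, 0.004, 0.07 and 0.06.

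None of the 4 integrin beta subunits tested passed. ITGB1, the common partner of most alpha subunits, had 53.4, 48.9 and 48.2 FPKM in siPOLR1F and 59.9, 48.1 and 48.3 FPKM in NC libraries. ITGB5, a partner of ITGAV, had 32.7, 36.2 and 35.3 FPKM in siPOLR1F and 33.3, 32.9 and 36.4 FPKM in NC libraries. Groups overlapped for both, and the 95% intervals of the log2 fold change were -0.26 to 0.16 for ITGB1 and -0.10 to 0.16 for ITGB5. ITGB4, the hemidesmosomal subunit that pairs with ITGA6, stood at 4.07 ± 0.705 FPKM in siPOLR1F and 4.15 ± 0.748 FPKM in NC, and ITGB3, the vitronectin and fibrinogen receptor subunit, at 1.70 ± 0.456 FPKM in siPOLR1F and 1.33 ± 0.163 FPKM in NC (SD, n = 3 each). The summed beta subunit FPKM was 91.0 ± 2.26 in siPOLR1F and 92.2 ± 7.0 in NC (SD, n = 3 each), of which ITGB1 made up 55.1% ± 2.42 in siPOLR1F and 56.4% ± 3.62 in NC. The log2 ratio of ITGB4 to ITGB1 was -3.64 ± 0.25 in siPOLR1F and -3.66 ± 0.27 in NC (SD, n = 3 each; exact permutation p = 0.7). ITGB4 overlaps GALK1 on the other strand, which had 1407 counts on average against 1935 for ITGB4.

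The 11 genes below 0.5 FPKM were ITGA4, ITGA9, ITGA10, ITGA11, ITGB2, ITGB6, ITGB7, ITGB8, LAMA2, LAMB4 and LAMC3. They include the leukocyte subunits ITGA4, ITGB2 and ITGB7 and the laminin alpha chain of muscle, LAMA2. In a fit with every gene that had at least 1 count, none of these 11 passed. ITGA4 had 15, 26 and 4 counts in siPOLR1F and 30, 47 and 80 counts in NC libraries, and ITGB2 had 148, 155 and 168 counts in siPOLR1F and 225, 160 and 226 counts in NC libraries. Groups did not overlap in FPKM for either gene (edgeR adjusted p = 0.258 and 0.403 in that fit). For ITGB2 the gap in FPKM was only from 0.320 to 0.321, and its counts overlapped. ITGA10, a collagen-binding subunit of cartilage, had 25, 36 and 15 counts in siPOLR1F and 9, 11 and 17 counts in NC libraries, with overlap. The leukocyte subunit ITGB7 had 0, 2 and 0 counts in siPOLR1F and 0, 0 and 7 counts in NC libraries, too few to compare. LAMC3 was lowest in replicate 3 of each group, with 54, 46 and 8 counts in siPOLR1F and 43, 50 and 6 counts in NC libraries. The integrin ligand SPP1 was also lowest in replicate 3, with 1.71, 1.62 and 0.0664 FPKM in siPOLR1F and 1.76, 1.37 and 0.0466 FPKM in NC libraries, and so was PAX8. The source of this split between libraries was not tested.

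**Figure D4:**
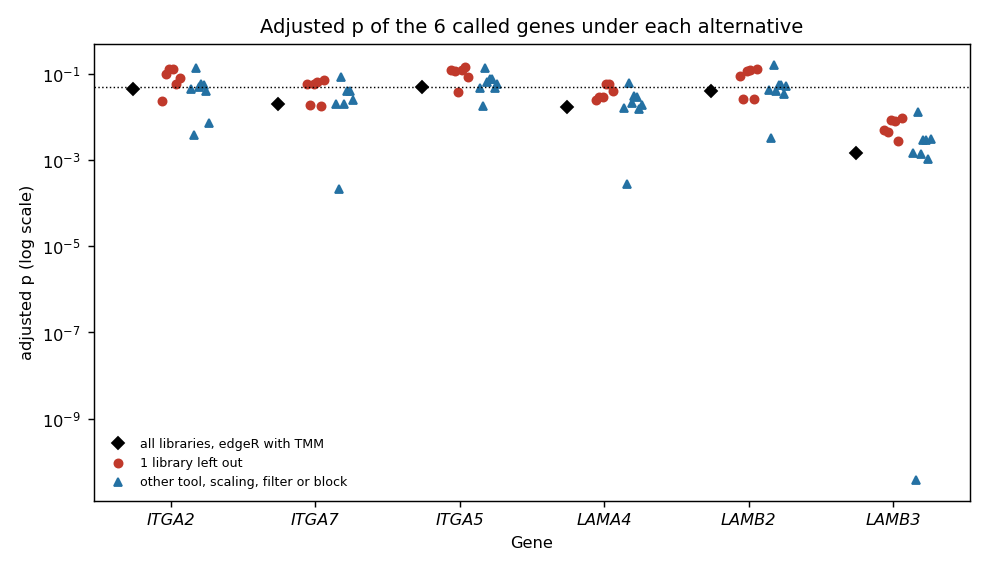
Adjusted p on a log axis of the 6 called genes with all libraries (black), with 1 library left out (red) and under another tool, scaling, filter or block (blue); the dotted line is 0.05. All LAMB3 points lie below the line, at 0.0133 or less, while the other 5 genes have points on both sides.

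Genes that work with integrins and laminins were counted in 3 lists drawn up from general knowledge. Of 36 cytoplasmic integrin adhesion genes tested, 4 were higher, 6 were lower and 26 did not pass, so 27.8% were called, against 17.2% of all genes. PXN, the scaffold paxillin of focal adhesions, had 22.9, 22.3 and 23.4 FPKM in siPOLR1F and 31.2, 32.9 and 32.4 FPKM in NC libraries (log2 fold change -0.48, SE 0.05; edgeR adjusted p = 0.000531). DAB2, an endocytic adaptor of integrins, had 5.40, 5.83 and 6.09 FPKM in siPOLR1F and 8.35, 8.17 and 8.98 FPKM in NC libraries (log2 fold change -0.55). PTK2, the focal adhesion kinase, went the other way, with 15.6, 15.9 and 15.7 FPKM in siPOLR1F and 13.3, 12.0 and 13.2 FPKM in NC libraries (log2 fold change 0.30). LPP, a LIM protein of adhesions, had 2.99, 2.52 and 2.45 FPKM in siPOLR1F and 1.75, 1.78 and 1.501 FPKM in NC libraries (log2 fold change 0.67). Groups were separate for each of these 4 genes, and each passed in all 14 alternatives. The other calls were smaller or less stable, with log2 fold changes of 0.24 for VASP, 0.23 for CRK, -0.22 for VCL, -0.20 for ACTN4, -0.38 for TNS1 and -0.53 for LIMS2. The median log2 fold change of the list was 0.01. Only 2 higher and 2 lower genes passed without siPOLR1F replicate 1, and the same numbers without siPOLR1F replicate 2. In these fits the share of all genes called also fell, to 9.27% and 10.4%. PXN overlaps PXN-AS1 and LPP overlaps LPP-AS2 on the other strand, each with few counts beside it.

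Of 24 basement membrane partners and laminin-binding proteins tested, 2 were higher, 4 were lower and 18 did not pass, so 25.0% were called (8.33% higher and 16.7% lower), against 17.2% of all genes (10.3% higher and 6.94% lower). The cell surface heparan sulfate proteoglycans SDC1 and SDC4 moved in opposite directions. SDC1 had 11.1, 11.5 and 12.0 FPKM in siPOLR1F and 18.03, 19.9 and 19.99 FPKM in NC libraries (log2 fold change -0.73, SE 0.07, edgeR adjusted p = 0.000352). SDC4, the syndecan of focal adhesions, had 55.0, 54.5 and 55.1 FPKM in siPOLR1F and 45.9, 36.9 and 41.2 FPKM in NC libraries (log2 fold change 0.42). Neither pair of groups overlapped. HSPG2, the basement membrane proteoglycan perlecan, had 5.90, 6.88 and 5.29 FPKM in siPOLR1F and 8.14, 8.21 and 9.54 FPKM in NC libraries (log2 fold change -0.51). TSPAN4, a tetraspanin that associates with integrins, had 11.8, 13.1 and 13.4 FPKM in siPOLR1F and 15.5, 16.0 and 16.4 FPKM in NC libraries (log2 fold change -0.32). The laminin receptors DAG1 (log2 fold change 0.26) and BCAM (-0.40) made up the other two calls, and these held in 9 and 5 of 14 alternatives. The list's median log2 fold change was -0.15. Only 1 higher gene in place of 2 passed without NC replicate 3, and likewise without siPOLR1F replicate 1, 2 or 3. The share of all genes called fell as well, to 10.4%, 9.27%, 10.4% and 8.5% in that order.

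Of 19 other integrin ligands tested, 1 was higher, 2 were lower and 16 did not pass, so 15.8% were called, close to the 17.2% of all genes. ADAM15, a membrane protease whose disintegrin domain binds integrins, had 23.7, 25.6 and 25.6 FPKM in siPOLR1F and 16.2, 15.3 and 16.5 FPKM in NC libraries (log2 fold change 0.65, SE 0.06, edgeR adjusted p = 0.000319). FN1, fibronectin and the ligand of ITGA5, had 38.2, 43.2 and 33.4 FPKM in siPOLR1F and 53.9, 48.6 and 53.9 FPKM in NC libraries, a log2 fold change of -0.44. FBN1, the microfibril protein fibrillin, had 5.50, 5.89 and 5.82 FPKM in siPOLR1F and 6.67, 6.62 and 7.24 FPKM in NC libraries, a log2 fold change of -0.25 that passed in 9 of 14 alternatives. Thus the receptor subunit ITGA5 and its ligand FN1 were called in opposite directions. The ITGA5 call held in only 4 of 14 alternatives, and that of FN1 in 13. The list's median was -0.03. Only 1 lower gene passed without NC replicate 3 and without any single siPOLR1F library. Those fits called 8.5% to 10.4% of all genes.

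**Figure D5:**
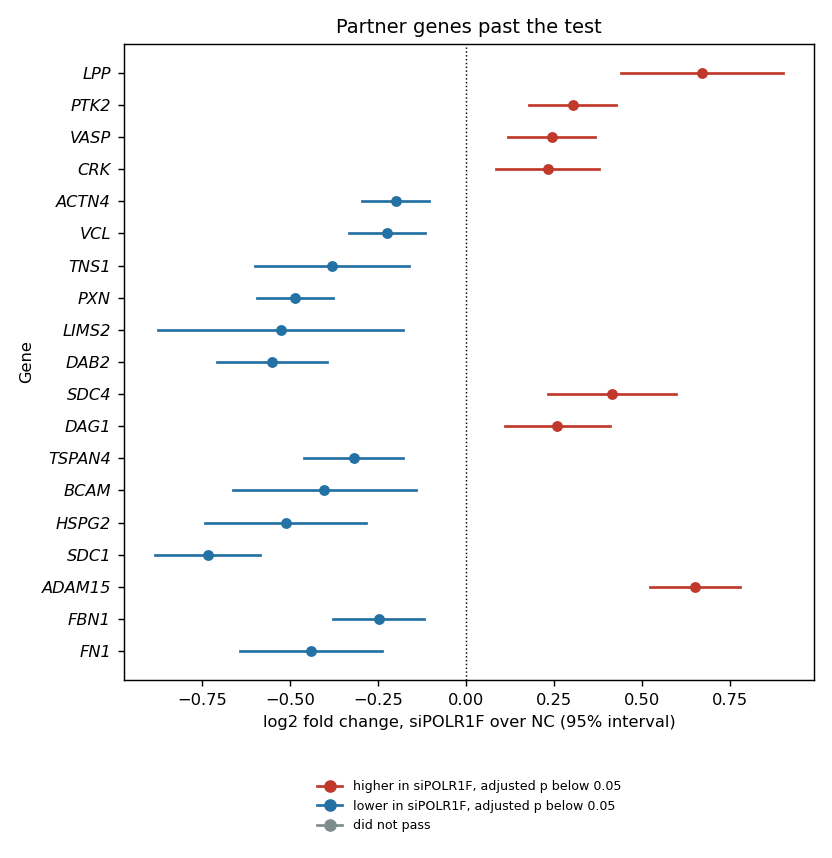
The log2 fold change, siPOLR1F over NC, of the 19 partner genes that passed, with its 95% interval; from the top, adhesion proteins, then basement membrane partners from SDC4 to SDC1, then other ligands from ADAM15. Rises (red) and falls (blue) occur in each list, from 0.67 for LPP to -0.73 for SDC1.

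A pair of heptamers, TCGGAGA and CCGACTT, had been picked in an earlier scan of these same fold changes, as letters found more often in genes that rose or fell, and their presence is therefore only described. Each gene was searched on the sense strand in the coding sequence and 3′ UTR of its GENCODE 29 transcript with the longest coding sequence. TCGGAGA occurred in 9.62% of 11271 genes searched; 27.1% of the genes with it were higher in siPOLR1F, against 10.2% of those without it. Of the 19 integrin and laminin genes, ITGAV, LAMA1, LAMA4 and LAMA5 held it, of which LAMA4 was higher. The sites of LAMA4, at position 751 of its transcript, and of ITGAV, at position 1047, both lie in the coding sequence and are shown with the heptamer in capitals, as a gene that rose and a gene that did not.
LAMA4: ggatggttataTCGGAGAttccatcaggg
ITGAV: ttctgtggctgTCGGAGAtttcaatggtg
CCGACTT occurred in 6.49% of the genes searched, and 15.7% of the genes with it were lower, against 7.29% of those without it. LAMA1, LAMA3, LAMA5 and LAMB1 held it, and none of these 4 passed. LAMB3, LAMB2, ITGA2, ITGA5 and ITGA7, which are 5 of the 6 called genes, held neither heptamer in these sequences.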

How the data were processed

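Poly(A) RNA of 3 siPOLR1F and 3 NC libraries was sequenced with paired reads of 150 bases, per the labels' protocols. Reads went through fastp, HISAT2 and StringTie on GRCh38 (hg38), per the submitters' processing notes; the sources used here give no versions, annotation or strand setting. The authors deposited whole-number counts and FPKM per gene, and both were used as deposited. Counts were tested with edgeR 4.0.16 (TMM, quasi-likelihood, two-sided; R 4.3.3) in 13564 genes with a mean of at least 0.5 FPKM, which held 99.4% of the counts, with Benjamini-Hochberg adjustment over all of them and a threshold of 0.05. The SE was taken as the log2 fold change over the root of F. The script was tested on simulated data, with 50 genes changed at each size. It recovered 64% of planted log2 changes of 1 and of -1, 50% of -0.5 and 38% of 0.5. Of its 115 calls, 6.09% were false. In the data 2333 genes were called, so far fewer genes were changed in the simulation, and these rates may not hold for the data. A gene that did not pass may still differ. Ratios of 2 genes were compared by exact permutation (scipy 1.17.1). The symbols, lists and tests were chosen with earlier results of these data known. All members are accounted for; those past the test, the most abundant of each role and up to 4 called genes per list, by smallest adjusted p, are given with their values. DAG1, BCAM, the other called adhesion genes, METTL7B, PELO, GALK1, ADRM1, SPP1 and the low members were named after their values were seen. Alternatives were DESeq2 1.42.0, other scalings and filters, limma 3.58.1 on log2(FPKM + 1) and log2(FPKM + 0.1), the replicate block and leaving out each library. Promoters came from RefSeq and transcripts from GENCODE 29.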

Additional observations from a re-analysis of the deposited data

How the results depend on the processing

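LAMB3 kept its rise and its call in all 14 alternatives, and POLR1F its fall; the other 5 called integrin and laminin genes did not. With every gene that had at least 1 count, 663 genes were higher and 313 lower in all, 1 integrin or laminin gene was higher and 0 were lower, and the partner lists held 2 lower adhesion genes, 1 higher and 1 lower basement membrane gene and 0 lower ligand genes. By construction that fit adjusts over more genes and over far lower counts. Library size alone, limma on log2(FPKM + 1) and limma on log2(FPKM + 0.1) each left 2 higher integrin and laminin genes, and either limma fit left 1 lower. Of all genes, 17.7% were called with library size alone and 15.3% in either limma fit. The cause of the lower counts was not tested. DESeq2 called 5 lower ligand genes and a filter at a mean of 1 FPKM called 4. These fits called 23% and 20.8% of all genes. With 1 library left out, 730 to 1326 genes were higher and 423 to 841 lower, 1 to 3 integrin and laminin genes were higher and 0 to 2 lower. Over the same fits the adhesion list held 2 to 4 higher and 2 to 5 lower genes, the basement membrane list 1 to 3 higher and 3 to 5 lower, and the ligand list 1 higher and 1 to 3 lower. The difference in log2 ratio was -0.116 to 0.173 for ITGB4 to ITGB1 and -0.0926 to 0.0700257 for ITGA6 to ITGA3, so neither direction held. Log2 fold changes of genes that had not passed crossed 0 with 1 library left out: -0.2717 to 0.0997 for ITGA1, -0.1301 to 0.003627 for ITGA6, -0.1017 to 0.06605 for ITGB1, -0.159 to 0.1004 for ITGB4 and -0.0857 to 0.05779 for LAMB1. The replicate numbers do not pair the libraries by any label; the deviations of same-numbered libraries correlated by 0.293, 0.016 and 0.274, the highest value for each library, though near 0 for number 2; this is a hint from the data, not the design. With the replicate block 5 integrin and laminin genes passed, 4 of them shared with the 6 called without it, beside 19.5% of all genes. In that edgeR fit LAMB2 (adjusted p = 0.0525) and ITGA5 (0.058) did not pass and ITGAV (0.0185) did.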
